A study of Rattus norvegicus with 12 samples.

Results

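The livers of rats given the common Fuyun6 green tea (FYT) together with N-nitrosodiethylamine (NDEA) were compared with the livers of rats given NDEA alone. The comparison uses 6 of the 12 libraries of the study, namely the 3 libraries labelled FYT and the 3 libraries of the NDEA model group. All 6 come from male Wistar rats whose livers were taken at week 20. Both groups received NDEA by intraperitoneal injection, at 25 mg/kg and 2 injections per week, between weeks 2 and 9. The NDEA+FYT group drank the FYT infusion over the 20 weeks, and the NDEA group drank water. Each group started with 12 rats and 3 liver samples per group were sequenced. The labels do not give the age of the rats or say from which part of the liver, nodule or surrounding tissue, a sample was cut. The remaining libraries, 3 from the Control group, injected with saline and given water, and 3 from rats given NDEA with the EGCG-rich tea CFT-1, served here to estimate the spread between libraries. The comparison asks how the liver transcriptome of NDEA-injected rats differed when they drank the common tea.

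NDEA is a nitrosamine that cytochrome P450 enzymes of the hepatocyte turn into an ethylating agent, which damages DNA and leads to nodules, adenomas and carcinomas of the liver. Green tea is rich in catechins, polyphenols with antioxidant activity that are conjugated in the gut wall and the liver after they are drunk. A transcriptome of whole liver is dominated by hepatocyte RNA, with smaller shares from endothelial, Kupffer, stellate and bile duct cells. In such bulk samples fewer cells of a type and less RNA per cell cannot be told apart.

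The deposited table lists 34194 IDs, 32402 from the Ensembl rat annotation and 1792 with names of another form. Its unit is FPKM, in which the counted fragments of a gene are divided by its length and by the depth of the library. A gene was tested when its mean FPKM over the 6 libraries was at least 1, which left 12318 IDs (11559 Ensembl IDs and 759 of the other form). The files and reference tables used here pair 0 of these IDs with a symbol, so pathways and liver cell markers were not analysed here, and single genes are given by ID without a function. The labelled tissue could likewise not be checked against its marker genes.

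The counted fragments behind the FPKM values could be recovered as whole numbers, and came to 15493236, 20655651 and 22409964 in NDEA replicates 1, 2 and 3 and to 20054956, 17711196 and 24757596 in NDEA+FYT replicates 1, 2 and 3. The median gene tested had a mean of 328 fragments per library, and 310 of the 12318 had a mean of under 10. The most abundant transcripts were largely the same in the 6 livers, with 8 IDs among the 10 highest FPKM of every library and 59 IDs among the 100 highest of every library. The 10 highest IDs held 18.4% to 22.6% of the summed FPKM.

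NDEA replicate 1 stood apart from the other 5 libraries, and the main values are therefore given with and without it. It was the shallowest library, it had 13365 IDs at an FPKM of at least 1 against 11704 to 12127 in the other 5, and its median FPKM over the genes tested was 9.0 against 6.22 to 7.01. Its median-of-ratios factor, the typical ratio of its FPKM to the average library, was 1.4, while the other 5 had factors of 0.979 to 1.12. All comparisons were therefore made on the FPKM as deposited and again after each library was divided by its factor (scaled FPKM). The first principal component of log2(FPKM + 1) held 61.7% of the variance of the 6 libraries and placed NDEA replicate 1 at 72.8, NDEA replicates 2 and 3 at -31.2 and -12.6, and the 3 NDEA+FYT libraries between -12.7 and -4.6. After scaling, the same component held 56.7% and NDEA replicate 1 stood at 64.5. The 3 NDEA+FYT libraries thus lay between the NDEA libraries on this axis on both scales. The part of its lower depth in this position was not tested.

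**Figure D1:**
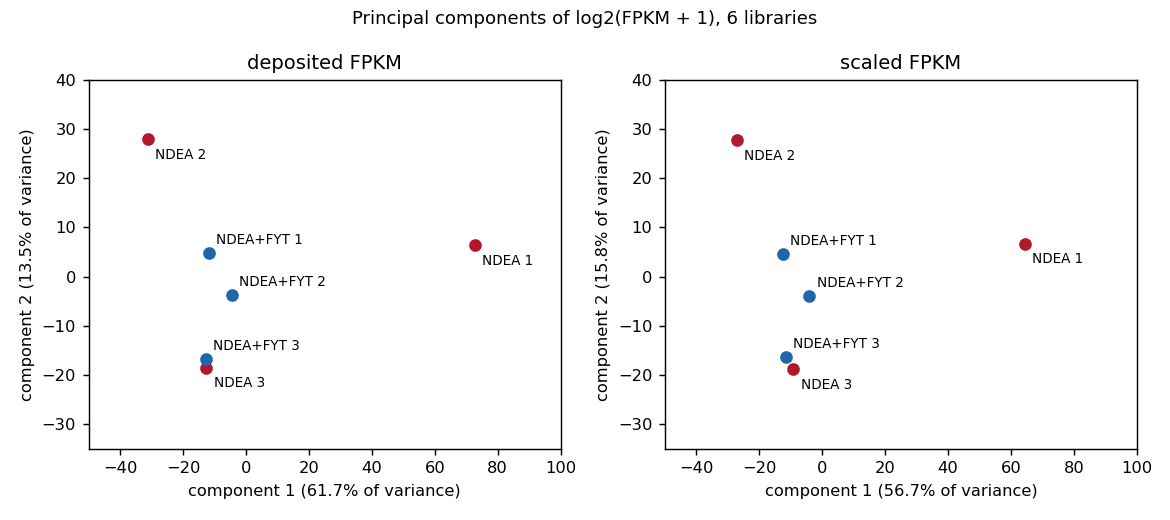
The 6 libraries on the first 2 principal components of log2(FPKM + 1), for deposited FPKM at left and scaled FPKM at right; each point is 1 library, red for NDEA and blue for NDEA+FYT, and the axes are component scores with their share of the variance. NDEA replicate 1 lies at the right end of component 1 (72.8 deposited, 64.5 scaled), and the 3 NDEA+FYT libraries lie between the NDEA libraries on that component.

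No single gene passed the correction for multiple tests between NDEA+FYT and NDEA when all libraries were weighted equally. With limma on log2(FPKM + 1) and Benjamini-Hochberg adjustment, 0 of 12318 genes (0.0%) had an adjusted p under 0.05, and the smallest adjusted p was 0.9995 on both scales. At an unadjusted p under 0.05 there were 178 genes (1.45%) on deposited FPKM, 125 higher (1.01%) and 53 lower (0.43%) in NDEA+FYT. On scaled FPKM there were 189 (1.53%), 115 higher (0.934%) and 74 lower (0.601%). Limma's voom method on the recovered fragments, with every library weighted equally, also called 0 genes, with 141 at an unadjusted p under 0.05 for library totals and 176 for scaled library sizes. With library weights, estimated anew on each scale, limma called 17 genes on scaled FPKM (9 higher, 8 lower, smallest adjusted p = 0.0271). It called 0 on deposited FPKM (581 at an unadjusted p under 0.05), where the weight of NDEA replicate 1 was 0.124. With library weights voom called 0 genes on both scales (smallest adjusted p = 0.1084 and 0.1095). Without NDEA+FYT replicate 3, limma on log2(FPKM + 1) with equal weights called 1 gene on both scales. The higher genes of both scales shared 82 IDs, which is 65.6% of the deposited list and 71.3% of the scaled list, and the lower genes shared 47 IDs, which is 88.7% and 63.5%. The methods call the replicates biological, but as no source used here states that each of the 3 liver samples of a group came from a different rat, these p-values measure the spread between samples, which may in part be technical.

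The differences between the group means were small for most genes. On deposited FPKM the middle 50% of genes differed by -0.173 to 0.105 on the log2 scale and the middle 90% by -0.441 to 0.405. A difference of at least 1 on the log2(FPKM + 1) scale, counted here as 2-fold, was seen for 92 genes (0.747%), 53 higher and 39 lower in NDEA+FYT, and on scaled FPKM for 82 (0.666%), 52 higher and 30 lower. The added 1 shrinks the differences of low genes, so some of these can differ more in FPKM itself and not be counted. Without NDEA replicate 1 there were 63 higher and 28 lower 2-fold genes deposited, and 46 and 43 scaled. The excess of higher genes among the 2-fold genes turned without NDEA replicate 2, with 107 higher and 258 lower deposited and 146 and 149 scaled. Without NDEA replicate 3 it was 99 and 124 deposited and 119 and 76 scaled. The precision of a single difference was moderate, with a median half-width of the 95% confidence interval of 0.532 deposited and 0.484 scaled. For 9596 genes (77.9%) the whole interval lay between -1 and 1 on the log2(FPKM + 1) scale on deposited FPKM, and for 9931 (80.6%) on scaled FPKM. With a pseudocount of 0.1 it did so for 7616 and 8165 genes, and by voom for 7717 and 8129. An interval within 0.5 on the log2 scale was reached by 2274 genes (18.5%) and 3583 genes (29.1%), so smaller differences were not resolved for most genes. The interval of 1 ID, ENSRNOG00000050545, lay wholly beyond 1 on that scale, from -10.91 to -1.58 deposited and from -10.79 to -1.39 scaled. It had 0 fragments in all 3 NDEA+FYT libraries and passed the filter through NDEA alone, so this interval depends on the pseudocount and is no bound. For the same reason its unadjusted p-values are not read as a test.

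The share of genes that were lower in NDEA+FYT depended on the scale and on NDEA replicate 1. With all 6 libraries 56.9% of genes were lower on deposited FPKM, at a median difference of -0.036, and 49.8% on scaled FPKM, at a median of 0.001. Without NDEA replicate 1 the deposited share was 28.6% and the median difference 0.095, while on scaled FPKM they were 51.2% and -0.005. The sign of the median difference on the deposited values thus turned with this library. On scaled FPKM a median near 0 is set by the scaling itself and does not bear on a general shift.

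Low and high transcripts differed in the direction of their small differences. Of the 4938 genes with a mean FPKM of 1 to 5, 65.8% were lower in NDEA+FYT on deposited FPKM and 60.1% on scaled FPKM. Of the 2284 genes between 20 and 100, 44.1% and 35.7% were lower, and of the 857 genes at 100 and over, 43.2% and 37.6%. The median differences on the scaled values ran from -0.048 in the lowest class through 0.01 between 5 and 20 to 0.068 and 0.078 in the 2 upper classes. Without NDEA replicate 1 this order did not hold on the scaled values, where the medians were -0.008, -0.002, 0.005 and -0.036 from the lowest to the highest class. On deposited FPKM without that library, genes that were lower in NDEA+FYT were the minority in all 4 classes, at 21.0% to 34.5%.

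**Figure D2:**
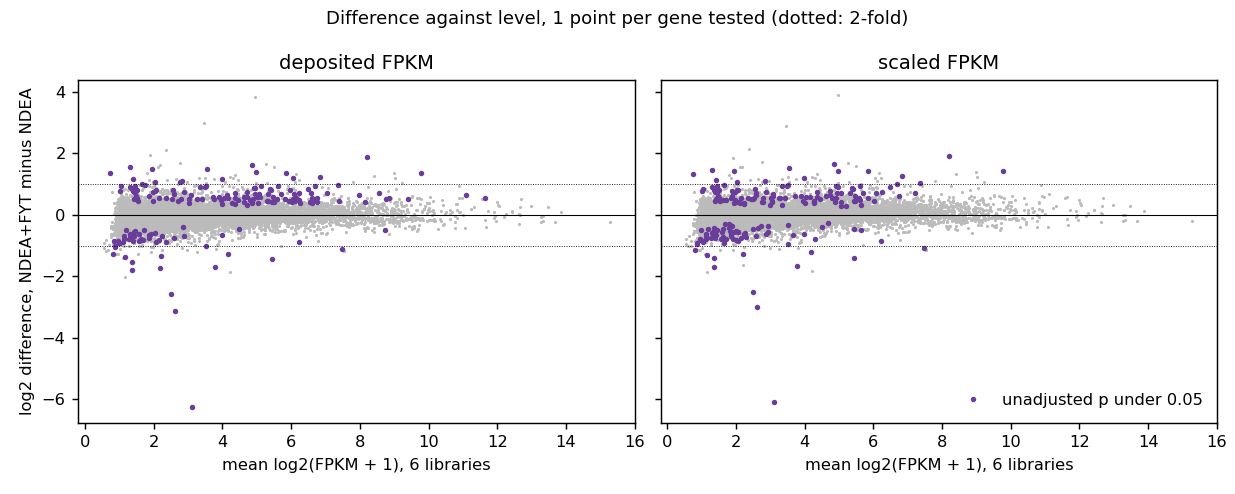
Difference between NDEA+FYT and NDEA (log2, vertical axis) against the mean log2(FPKM + 1) of the 6 libraries (horizontal axis), for deposited FPKM at left and scaled FPKM at right; each grey point is 1 of the 12318 genes tested, purple points have an unadjusted limma p under 0.05, and dotted lines mark 2-fold. Few points pass 2-fold (92 deposited, 82 scaled), and the lowest point in both plots is ENSRNOG00000050545.

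The NDEA+FYT livers resembled each other more than the NDEA livers did, and most of that difference rested on NDEA replicate 1. The Euclidean distance over the 12318 genes averaged 43.8 between NDEA+FYT libraries (40.2 to 46.0) and 83.9 between NDEA libraries (53.6 to 107.0) on deposited FPKM, while the 9 distances between the groups averaged 61.3 (39.9 to 91.1). Without NDEA replicate 1, the distance between the other two NDEA libraries was 53.6 and the distances between the groups averaged 47.8 (39.9 to 54.6). The distances within the NDEA+FYT group overlapped those between the groups with and without that library. On scaled FPKM the averages were 43.0, 76.1 and 57.4, and without NDEA replicate 1 the last 2 were 53.3 and 46.1. Counted by genes, 220 to 369 genes differed at least 2-fold between a pair of NDEA+FYT libraries and 500 to 2743 between a pair of NDEA libraries. Between an NDEA+FYT and an NDEA library it was 255 to 2155 genes, so single NDEA+FYT and NDEA livers could be as alike as a pair of NDEA+FYT livers.

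The distance between the group means was 31.6 deposited and 30.5 scaled, and 30.8 and 28.7 without NDEA replicate 1. With 6 libraries, all 20 assignments of the 6 libraries to groups of 3 gave a distance at least as large (exact permutation test, p = 1.0 on both scales, smallest possible p 0.1). This test cannot reach 0.05 with 3 libraries per group, so it does not show that the groups were alike.

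Gene by gene, the spread within the NDEA group was larger. The SD of log2(FPKM + 1) over 3 libraries had a median of 0.341 in NDEA and 0.148 in NDEA+FYT on deposited FPKM (0.284 and 0.146 scaled), and 10024 genes (81.4%) had the larger SD in NDEA (76.8% scaled). An SD above 1 was found for 787 genes in NDEA and 94 in NDEA+FYT. Since an SD over 2 libraries runs lower than one over 3, NDEA replicates 2 and 3 were set against pairs of NDEA+FYT libraries. Their median SD was 0.161 deposited and 0.157 scaled, while the 3 pairs of NDEA+FYT libraries had 0.115 to 0.129 and 0.11 to 0.127. An SD above 1 was found for 202 genes between NDEA replicates 2 and 3 and for 89 to 135 between pairs of NDEA+FYT libraries on deposited FPKM. Counting error was smaller than this spread, as over genes with at least 30 fragments in a group the median variance was 16.3 times that of counting in NDEA and 4.69 times in NDEA+FYT. Over NDEA replicates 2 and 3 alone it was 5.35 times, a value that also runs lower with 2 libraries than with 3. Whether the groups differ in spread was not tested.

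Accordingly, the NDEA+FYT values of many genes fell inside the range of the NDEA values. All 3 NDEA+FYT values lay between the lowest and the highest NDEA value for 6061 genes (49.2%) on deposited FPKM and 5165 (41.9%) on scaled FPKM. The reverse, all 3 NDEA values within the NDEA+FYT range, held for 752 genes (6.1%) and 997 genes (8.09%). Without NDEA replicate 1 the first count was 1577 deposited and 1897 scaled. Without NDEA replicate 2 it was 3024 and 2277, and without NDEA replicate 3 4615 and 3685. Leaving out any NDEA library can only narrow the NDEA range and so cannot raise this count. On deposited FPKM, NDEA replicate 1 held the highest of the 6 values for 56.3% of genes and NDEA replicate 2 the lowest for 36.2%. On scaled FPKM, NDEA replicate 1 was the highest for 30.2% and the lowest for 36.9%, so its distance from the others was not only one of scale. Each NDEA+FYT library was the highest of the 6 for at most 13.8% of genes and the lowest for at most 13.4%, on either scale.

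**Figure D3:**
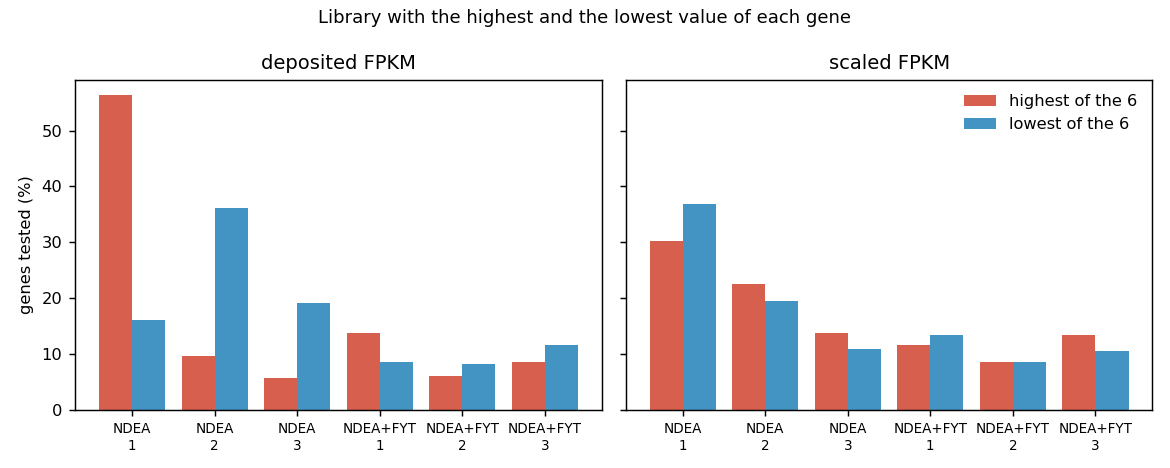
Share of the 12318 genes tested (vertical axis, percent) for which each of the 6 libraries (horizontal axis) holds the highest value (red bars) or the lowest value (blue bars), for deposited FPKM at left and scaled FPKM at right. NDEA replicate 1 holds the highest value for 56.3% of genes deposited and 30.2% scaled, and no NDEA+FYT library exceeds 13.8% in either direction.

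Genes whose groups did not overlap numbered 715 (5.8%) on deposited FPKM, 464 higher (3.77%) and 251 lower (2.04%) in NDEA+FYT, and 791 (6.42%) on scaled FPKM, 421 higher (3.42%) and 370 lower (3.0%). Of the 12318 genes tested, 209 higher and 159 lower ones had no overlap on either scale. The counts with a library left out, given below, are over the same 12318 genes. The higher ones had a median difference of 0.401 on the deposited log2 scale (0.15 to 3.84) and 10 of them reached 2-fold. The lower ones had a median of -0.398 (-6.25 to -0.162) and 9 reached 2-fold. The excess of higher genes among all genes without overlap turned in some alternatives. Without NDEA replicate 1 there were 2414 higher and 486 lower deposited, but 1057 and 1201 scaled. Without NDEA replicate 2 it was 1138 and 1238 deposited, 1513 and 1243 scaled. Without NDEA+FYT replicate 3 it was 917 and 610, and 819 and 870. Without a filter, over 23598 IDs, it was 661 and 546, and 618 and 681. It held with each other library left out. IDs of the other form made up 22 of the 209 (10.5%) and 12 of the 159 (7.55%), beside 6.16% of all genes tested. By level on deposited FPKM, the groups did not overlap for 4.94% of the genes between 1 and 5 FPKM (102 higher, 142 lower), 5.73% between 5 and 20 (169 and 74), 7.66% between 20 and 100 (150 and 25) and 6.18% at 100 and over (43 and 10). On scaled FPKM the shares were 5.91% (102 and 190), 6.32% (142 and 126), 8.27% (147 and 42) and 4.9% (30 and 12). Of the 759 tested IDs of the other form, 3.29% had an unadjusted p under 0.05 on both scales, beside 1.32% and 1.42% of the Ensembl IDs. Their spread within NDEA+FYT was also larger, with a median SD of 0.209 beside 0.145 for Ensembl IDs on deposited FPKM.

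The number and direction of the genes at an unadjusted p under 0.05 changed with the NDEA libraries. When NDEA replicate 1 was left out there were 238 higher and 53 lower genes on deposited FPKM and 89 and 115 on scaled FPKM, so the excess of higher genes was reversed on the scaled values. Without NDEA replicate 2 there were 206 higher and 412 lower deposited and 308 and 351 scaled. Without NDEA replicate 3 there were 233 and 128 deposited and 282 and 139 scaled. Leaving out an NDEA+FYT library gave 83 to 111 higher and 41 to 60 lower genes deposited, and 70 to 92 and 43 to 74 scaled. The direction of the excess also turned with all 6 libraries kept. When no low values were filtered out, 309 IDs were higher and 336 lower on deposited FPKM, and 272 and 346 on scaled FPKM. With library weights 984 were higher and 1070 lower on scaled FPKM, but 436 and 145 on deposited FPKM.

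**Figure D4:**
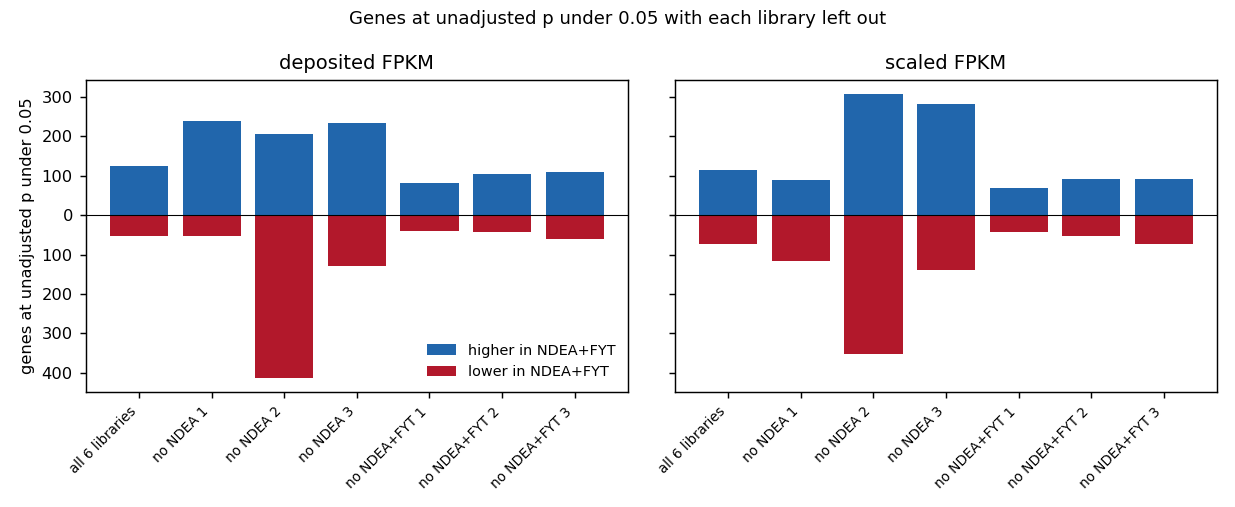
Genes at an unadjusted limma p under 0.05 (vertical axis, number of genes; blue upward, higher in NDEA+FYT; red downward, lower in NDEA+FYT) with all 6 libraries and with each of them left out in turn (horizontal axis), for deposited FPKM at left and scaled FPKM at right. Lower genes outnumber higher genes without NDEA replicate 2 on both scales (412 against 206 deposited, 351 against 308 scaled).

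The 4 single IDs described in the next paragraphs had the largest differences among the genes whose groups did not overlap on both scales, 2 in each direction. Since they were picked for this difference, their values and unadjusted p-values, also under the alternatives, are a description and no test of it. None of the 4 IDs passed the adjusted test (limma, adjusted p = 0.9995 for each on both scales). They come from the extremes of a comparison with 0 calls.

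ENSRNOG00000050156 was higher in the NDEA+FYT libraries. Its FPKM was 160.0, 88.1 and 113.0 in NDEA+FYT replicates 1, 2 and 3 (mean 120.0 ± 36.6, SD, n = 3) and 9.06, 0 and 54.0 in NDEA (21.0 ± 28.9, SD, n = 3). Behind these values stood 183, 89 and 159 fragments in NDEA+FYT and 8, 0 and 69 in NDEA. The difference was 3.84 on the log2(FPKM + 1) scale (95% interval -0.44 to 8.12, limma unadjusted p = 0.0739) and 3.88 after scaling. Without NDEA replicate 2, the library at 0, it was 2.32 (limma, unadjusted p = 0.275). Without NDEA replicate 3 it was 5.21 (limma, unadjusted p = 0.0298), and with a pseudocount of 0.1 it was 4.99. Its level varied widely elsewhere, at 1.54, 1340 and 16.3 in the 3 Control libraries and 1370, 1350 and 145 in the 3 NDEA+CFT-1 libraries. The 3 NDEA+FYT values lay within the Control range.

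Novel01035 had an FPKM of 5.46, 7.13 and 4.0 in NDEA+FYT (5.53 ± 1.57, SD, n = 3) and 0.543, 0.713 and 3.57 in NDEA (1.61 ± 1.7, SD, n = 3). The highest NDEA library, replicate 3, reached nearly the lowest NDEA+FYT library, at 38 beside 47 fragments. The mean FPKM was 3.44 times higher in NDEA+FYT (2.58 times without NDEA replicate 1). Without NDEA replicate 3 the ratio would be higher, since that library held the highest NDEA value. The difference on the log2(FPKM + 1) scale was 1.48 (95% interval 0.32 to 2.64), or 1.98 without NDEA replicate 3. The unadjusted limma p was 0.0167 deposited and 0.03 scaled. It was over 0.05 in 5 of 23 alternatives, among them 0.0672 without NDEA replicate 1. The Control libraries were at 4.62, 1.01 and 8.09 and overlapped both groups. The NDEA+CFT-1 libraries, at 6.71, 3.58 and 3.51, also overlapped both groups.

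ENSRNOG00000050545 was not found in any NDEA+FYT library. It had 0 fragments in all 3, while NDEA replicates 1, 2 and 3 had 815, 216 and 2 fragments, or an FPKM of 923, 183 and 1.57. A floor of 3 fragments over the NDEA+FYT group corresponds to an FPKM of 0.842, which makes the level at least 368-fold lower in NDEA+FYT over the summed libraries. This bound covers counting error only and does not describe each NDEA library, since replicate 3 with 2 fragments lay about at the floor. Without NDEA replicate 1, which held 815 of the 1033 fragments, 218 fragments were left and the level was at least 105-fold lower. The fitted difference, which depends on the pseudocount, was -6.25 deposited and -6.09 scaled. Its unadjusted p-values are not read as a test, since the ID was picked for its difference and passed the filter through NDEA alone. The Control libraries had an FPKM of 66.3, 2.79 and 0 and the NDEA+CFT-1 libraries 1.36, 1.66 and 131, so libraries at or near 0 occurred in all 4 groups.

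Novel00701 was lower in NDEA+FYT, at an FPKM of 2.48, 0.296 and 1.8 (1.52 ± 1.12, SD, n = 3) against 4.56, 18.4 and 23.7 in NDEA (15.5 ± 9.88, SD, n = 3). The fragments were 19, 2 and 17 against 27, 145 and 203. The mean FPKM was 10.2 times higher in NDEA than in NDEA+FYT, and the difference was -2.57 on the log2(FPKM + 1) scale (95% interval -4.81 to -0.34; limma, unadjusted p = 0.0277 deposited, 0.0414 scaled and 0.094 by voom). The gap between the groups was set by NDEA replicate 1, the library nearest to the NDEA+FYT values. The Control libraries, at 8.28, 20.4 and 0, spanned the levels of both NDEA+FYT and NDEA replicate 2. The NDEA+CFT-1 libraries, at 0, 5.07 and 3.46, spanned the levels of NDEA+FYT and NDEA replicate 1.

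ENSRNOG00000057194 was a transcript on which the NDEA+FYT livers were divided, and it was chosen after its values were seen. NDEA+FYT replicates 1 and 2 had an FPKM of 89.3 and 93.5, from 4221 and 3901 fragments, while NDEA+FYT replicate 3 was at 14.5 from 848 fragments. The NDEA libraries had 22.4, 12.3 and 14.0, the Control libraries 15.7, 14.6 and 11.3, and the NDEA+CFT-1 libraries 14.6, 16.5 and 14.3. A pair of NDEA+FYT livers therefore stood above all of the other 10 libraries, and the third lay among them. With all libraries the difference was 1.61 on the log2(FPKM + 1) scale (limma, unadjusted p = 0.0121, adjusted p = 0.9995). Without NDEA+FYT replicate 3 it was 2.46, and this was then the only ID called (limma, adjusted p = 0.01 deposited and 0.000763 scaled). Since that fit left out the NDEA+FYT library that lay among the other groups, this call describes the split and is no test of it.

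**Figure D5:**
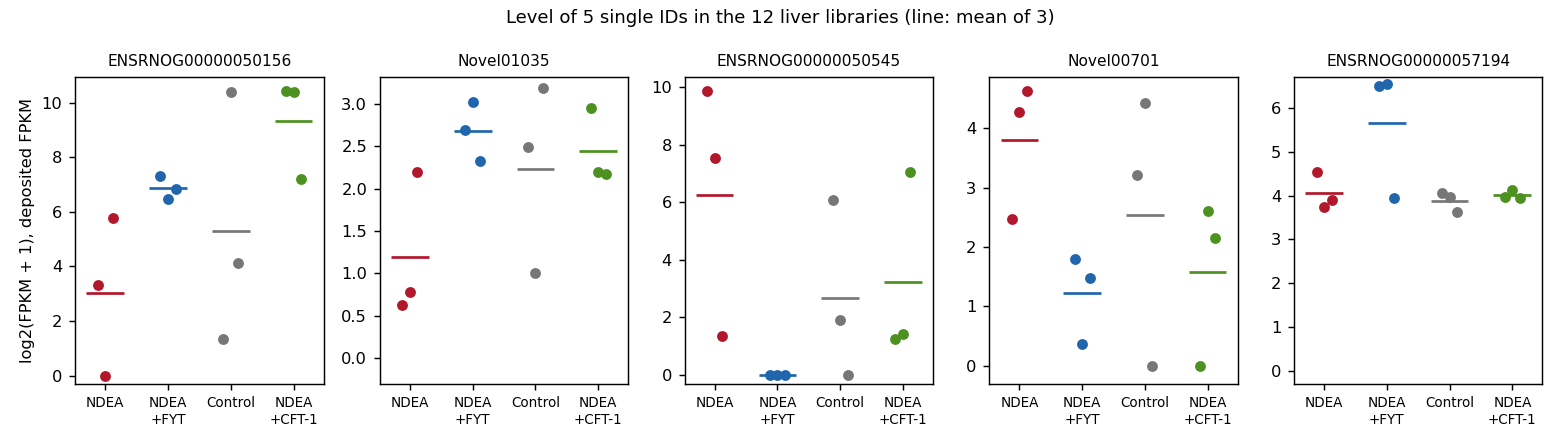
Level of 5 single IDs as log2(FPKM + 1) of the deposited FPKM (vertical axis) in the 4 groups (horizontal axis); each point is 1 of 3 libraries per group and the line is their mean. ENSRNOG00000050545 is at 0 in all 3 NDEA+FYT libraries, and for ENSRNOG00000057194 a pair of NDEA+FYT libraries (89.3 and 93.5 FPKM) lies above the other 10 libraries.

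Transcripts detected in only 1 of the groups were few and mostly at the limit of detection. Of the 34194 IDs listed, 23 had fragments in all 3 NDEA+FYT libraries and 0 in all 3 NDEA libraries. They had a median of 4 fragments over the 3 libraries and at most 10, and 0 of them were among the genes tested. The reverse held for 51 IDs, with a median of 5 fragments, of which 1 was tested. Among these the highest was ENSRNOG00000050545 with 1033 fragments, and the next highest had 15. At these counts an absence could not be told from a low level.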

How the data were processed

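RNA from rat liver was sequenced in 4 groups of 3 libraries, grouped by the sample labels. According to the methods and the submitters' processing notes, the authors trimmed reads (Trimmomatic), aligned them to Rnor_6.0 (HISAT2), dropped PCR duplicates, counted unique reads (HTSeq 0.6.1) and deposited FPKM values, 1 column per library. Dropping duplicates can lower the most abundant transcripts.

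Here, log2(FPKM + 1) was tested for IDs whose FPKM averaged at least 1 in the 6 libraries, with limma 3.58.1 in R 4.3.3 (12 libraries, 4 group means, eBayes with trend, Benjamini-Hochberg adjustment, called at adjusted p under 0.05). For scaled FPKM each library was divided by its median-of-ratios factor over the 12 libraries. Fragments were recovered as whole numbers (tolerance 0.02) for 24714 of the 24718 IDs above 0 (99.984%), summing to 99.986% to 99.991% of the totals within the FPKM, and voom was run on them. The scripts were tested on simulated data.

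Alternatives were pseudocount 0.1, a minimum mean FPKM of 5 or none, 6 libraries only, a replicate block, eBayes without trend, library weights, quantile normalization and each library left out. The fits by voom, and the alternatives for the 2-fold, range and interval counts, were added after seeing the data. The genes and lists were chosen with earlier results of these data known. The rule named 2 IDs per direction, those with the largest difference among genes whose groups did not overlap on both scales. Gene lists and markers by symbol, set out for this comparison, were not analysed here because 0 IDs had a symbol. Intervals come from the spread between libraries, and the fragment floor covers counting error only.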

Additional observations from a re-analysis of the deposited data

How the results depend on the processing

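The number of genes called was 0 for every alternative run with all libraries weighted equally, except that leaving out a library gave 0 to 1 calls on both scales (1 without NDEA+FYT replicate 3). With library weights, limma called 17 genes on scaled FPKM and 0 on deposited FPKM, and voom called 0 on both scales. The limma weights on deposited FPKM ran from 0.124 for NDEA replicate 1 to 6.5 for NDEA+CFT-1 replicate 1. Those on scaled FPKM were estimated apart and are not given here. The cause was not tested.

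Genes at an unadjusted p under 0.05, 178 deposited and 189 scaled, numbered 581 and 2054 with library weights, 922 and 561 by voom with library weights (721 higher and 201 lower, 259 and 302), 645 and 618 without a filter on low values, and 110 and 98 at a mean FPKM of at least 5, where fewer genes were tested. Leaving out 1 of the 12 libraries gave 124 to 618 deposited and 113 to 659 scaled. Without NDEA replicate 1 they were 291 and 204, without NDEA replicate 2 618 and 659, without NDEA replicate 3 361 and 421, and without NDEA+FYT replicate 1 124 and 113.

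Genes whose groups did not overlap, 715 and 791, numbered 1207 and 1299 without a filter, 471 and 499 at a mean FPKM of at least 5, and 1106 to 2900 and 1316 to 2756 with 1 library left out, where fewer libraries make an overlap rarer. Genes at least 2-fold apart, 92 on deposited FPKM, numbered 61 at a mean FPKM of at least 5 and 91 to 365 with 1 library left out (365 without NDEA replicate 2, 223 without NDEA replicate 3). Genes with all NDEA+FYT values within the NDEA range, 6061 and 5165, numbered 1577 to 7307 and 1897 to 6534 with 1 library left out. By construction this count cannot rise without an NDEA library or fall without an NDEA+FYT library. Genes with an interval within 1 on the log2(FPKM + 1) scale were 9596 and 9931 of 12318. They numbered 5945 and 5977 of 7380 at a mean FPKM of at least 5, and 20132 and 20676 of 23598 without a filter. With 1 library left out they were 8187 to 10225 and 8693 to 10394 of 12318.

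The 4 IDs named by rule kept their direction in every alternative that tested them, which is no test. They were picked as IDs whose groups did not overlap. For such an ID, leaving out a library or changing the pseudocount cannot turn the direction. With 1 library left out, the log2 differences were 2.32 to 5.21 for ENSRNOG00000050156, 1.19 to 1.98 for Novel01035, -8.69 to -4.44 for ENSRNOG00000050545 and -3.23 to -2.15 for Novel00701. Over all alternatives they were 2.32 to 5.21, 0.96 to 2.14, -9.36 to -3.27 and -4.27 to -2.15. The highest unadjusted limma p was 0.275 for ENSRNOG00000050156, 0.0717 for Novel01035 and 0.1 for Novel00701. Novel01035 was not tested at a mean FPKM of at least 5.

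Libraries of the 2 groups share replicate numbers. The deviations of same-numbered libraries from their group means correlated across genes at -0.111, -0.17 and 0.172 on deposited FPKM, so the numbers were not taken to pair the libraries. With the replicate number as a block, 0 genes were called, and 197 deposited and 175 scaled had an unadjusted p under 0.05. Depth limits genes with few fragments, 310 of which had a mean of under 10. Of genes with at least 30 fragments in the group, 6.26% in NDEA and 16.6% in NDEA+FYT varied no more than counting error.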
